A study of Mus musculus with 4 samples.

Results

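The organic anion and cation transporters are membrane proteins that carry drugs, toxins, urate, bile salts, prostaglandins, carnitine and other small charged molecules into and out of epithelial cells. The group was taken as the protein-coding genes of the table whose names begin with Slc22a, Slco or Slc47a followed by a number, without Slco2a1, which left 40 of 22058 protein-coding genes and of 54078 listed features. Of these, 25 belong to the Slc22 family, 13 to the Slco family and 2 to the Slc47 family. The names also matched 2 pseudogenes, Slc22a13b-ps and Slco6b1, which were not counted. The names alone define the group, which was proposed with earlier results of these data known.

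RNA-sequencing was performed on kidney tissue of adult male mice at day 3 after bilateral ischemia-reperfusion (bI/R 3D), in which both kidneys were clamped for 30 min. In Apela Ksp KO mice, floxed Apela alleles are combined with a Cre that the promoter of Ksp-cadherin switches on in the tubular epithelium of the kidney. Apela encodes the peptide Elabela (ELA), and the study found its mRNA and protein reduced in the kidneys of these mice. WT mice were littermates with the same floxed Apela alleles and no Cre. Each group has 2 libraries, and each library is a pool of RNA from 3 mice, so that 4 pools (WT pool 1, WT pool 2, KO pool 1 and KO pool 2) were compared. All 4 pools come from injured kidneys, hence the effect of the injury itself on the transporters cannot be read from them. Some mice died before day 3 in this model, and the pools hold RNA of survivors. The sample labels give a mixed C57BL/6 x 129S4/SvJae strain, whereas the study's methods give a C57BL/6 background. Replicates are separate pools, and each p-value measures the spread between pools and not between single mice.

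Secretion in the proximal tubule needs a transporter on each side of the cell. Organic anion transporters (OATs) on the blood side take up anions in exchange for a dicarboxylate, organic cation transporters (OCTs) take up cations driven by the membrane potential, and MATE proteins and ABC pumps pass the load into the urine. Organic anion transporting polypeptides (OATPs, the Slco genes) carry larger, amphipathic anions such as bile salts and thyroid hormones, and the carnitine transporters recover carnitine from the filtrate. Many of these genes depend on the factor HNF4 and are used as marks of the differentiated proximal tubule.

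The depth was similar over the pools, with between 16045724 and 16927742 reads on genes and between 47434 and 70642 of them on the 40 transporters. The targeted gene was read first. Apela had an FPKM (fragments scaled to gene length and library size) of 5.27 and 4.57 in the WT pools and of 0.536 and 0.245 in the KO pools. Both KO pools lay below both WT pools, with a log2 fold change of -2.62 ± 0.22 (SE, n = 2 pools per group), but even this difference missed the threshold after limma with Benjamini-Hochberg adjustment over all genes (adjusted p = 0.466). Fold changes here are KO minus WT on the scale of log2(FPKM + 0.5). All 20 proximal tubule genes listed were read, from Pck1 (575 to 2122 FPKM) and Slc34a1 (365 to 898 FPKM) down to Gatm (2.33 to 7.30 FPKM). The series text names adipose tissue as the source in a single place. The adipocyte markers Adipoq, Lep and Ucp1 were at 0 in at least 2 pools each and nowhere above 0.268 FPKM. The 6 adipocyte genes summed to 1.43 and 0.385 FPKM in the WT pools and to 8.27 and 3.19 FPKM in the KO pools, most of it from Cidec, and the pools were read as kidney.

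A few transporters held most of the transcripts. The 40 genes summed to 1228 and 898 FPKM in the WT pools and to 979 and 1341 FPKM in the KO pools. The 5 members with the highest mean FPKM over the 4 pools, among them Slc22a6, Slc47a1, Slc22a18 and Slc22a2, held 69.5% of this sum, and the first 8 held 85.4%. The mean FPKM reached 100 in 5 members, 10 in 16 members and 1 in 25 members. Slc22a6 ranked 120th among all protein-coding genes. Most steps in this order were smaller than the spread between pools. Of 24 pairs of neighbours in the order, only 2 had pools that did not overlap, namely Slc22a5 above Slc22a8 and Slc22a30 above Slc22a4.

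**Figure D1:**
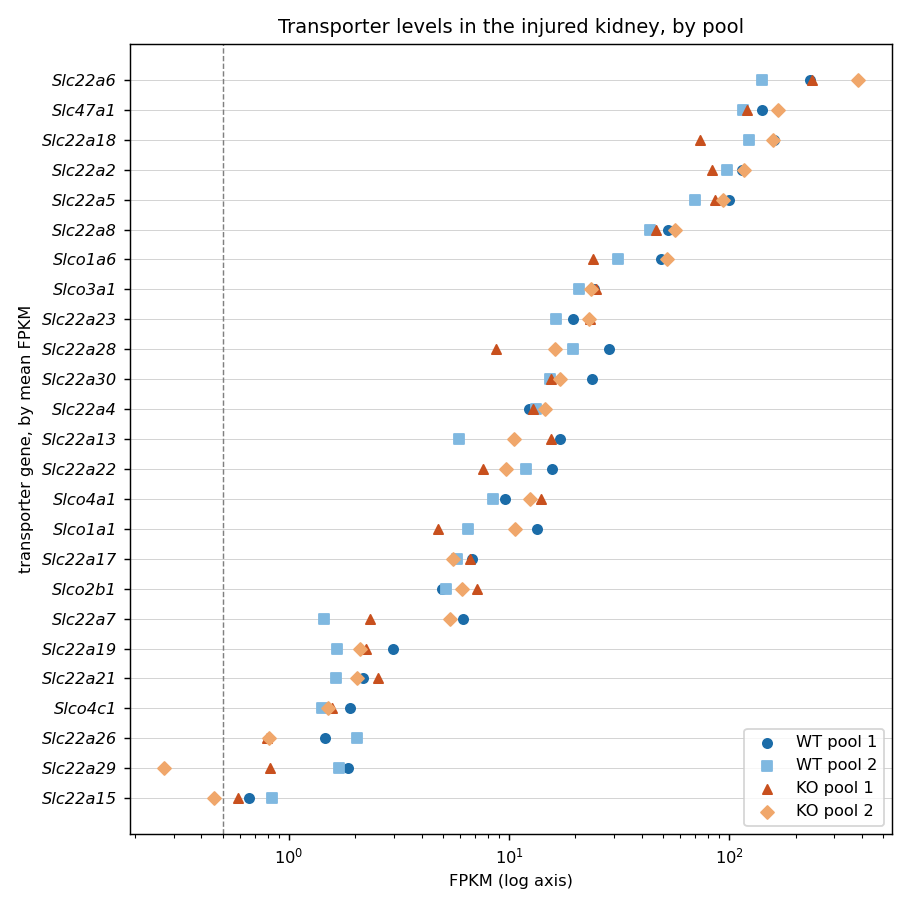
FPKM of 25 of the 26 tested transporters in each pool, on a log axis, ordered by the mean, with the filter of 0.5 on the mean as a dashed line. Slc22a6 spans 141 to 383 FPKM, and KO pool 2 of Slc22a29 lies at 0.271 FPKM, below the line.

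Comparison of KO and WT pools asked whether deleting Apela in tubules shifts the transport program of the injured kidney. With limma, 0 of the 26 transporters tested passed an adjusted p of 0.05, as did 0% of the 15414 genes tested, and the smallest adjusted p of a transporter was 0.732. At an unadjusted p under 0.05, 3 transporters were higher in KO, where 3.29% of all genes were, and 4 were lower, where 3.03% were. The 3 higher genes were Slco4a1, Slc22a23 and Slco2b1, and the 4 lower genes were Slc22a29, Slc22a28, Slc22a26 and Slc22a22. Both KO pools lay above both WT pools for 4 of 26 transporters, against 19.7% of all genes, and below them for 5 of 26, against 18.1%. These shares lie near the background, and a count of non-overlapping pools is therefore not a result about the transporters. The median log2 fold change was -0.040 over the 26 transporters and 0.0071 over all genes, with 12 transporters above 0 and 14 below. The 95% interval stayed within 1 of 0 on the log2 scale for 16 of the 26 transporters, so at high FPKM a doubling or halving lay outside it. At low FPKM this cannot be read from the interval, since the constant added to the FPKM makes a halving a step smaller than 1. For Slc22a15, one of the 16, with an interval of -0.91 to 0.34, a halving of FPKM was not excluded. The count of 7 at an unadjusted p dropped to 1 when KO pool 1 was left out, to 3 without WT pool 2, and to 4 with the replicate number as a block or without the mean-variance trend.

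**Figure D2:**
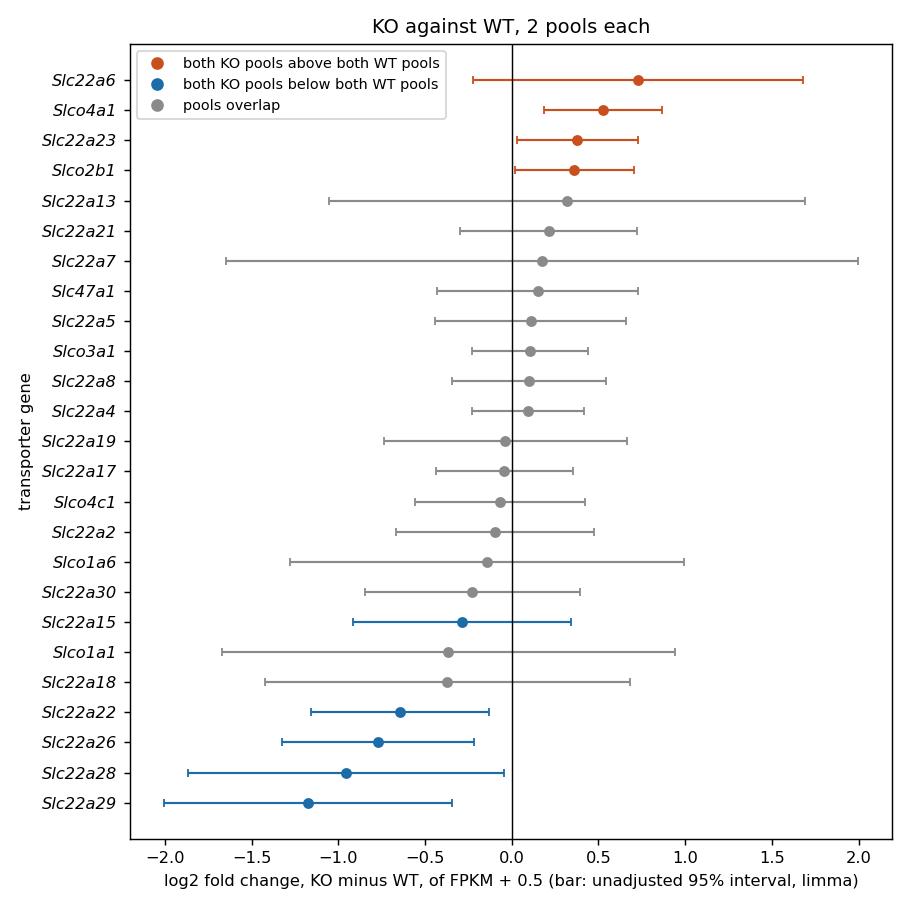
Log2 fold change of 25 of the 26 tested transporters, KO minus WT, with the unadjusted 95% interval from limma, coloured by whether the pools of the groups overlap. Of the 9 genes without overlap, 4 lie above 0 (Slc22a6 highest, at 0.73) and 5 below (Slc22a29 lowest, at -1.17).

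OATs were the family with the most transcripts, 33.0% of the summed FPKM, and the family with the most genes tested. Their 13 members summed to 384 and 244 FPKM in the WT pools and to 336 and 502 FPKM in the KO pools, of which Slc22a6 made up the largest part. Of the 10 OATs tested, 4 had a log2 fold change above 0 and 6 below, with a median of -0.13 that turned to 0.16 without WT pool 1 and moved to -0.56 without WT pool 2. At an unadjusted p under 0.05 (limma) 4 were lower, where 3.03% of all genes were, and 0 were higher, where 3.29% were.

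Slc22a6 codes for OAT1, the basolateral exchanger that takes up para-aminohippurate and many drugs, and lies at chr19:8618039-8628299 (GRCm38, plus strand). Its FPKM was 233 in WT pool 1, 141 in WT pool 2, 236 in KO pool 1 and 383 in KO pool 2. KO pool 2 stood out as the highest and WT pool 2 as the lowest, while WT pool 1 and KO pool 1 differed by little. The groups did not overlap, but the log2 fold change of 0.73 ± 0.36 (SE, n = 2) had a 95% interval of -0.23 to 1.68 and an adjusted p of 0.797 (limma, unadjusted p = 0.105). With a pool left out the fold change ranged from 0.37 to 1.09. Slc22a8 codes for OAT3, which shares many substrates with OAT1, and neighbours it at chr19:8591254-8611835. It had 52.5 and 43.8 FPKM in the WT pools and 46.6 and 56.7 FPKM in the KO pools. The pools overlapped, and its log2 fold change was 0.10 with an interval of -0.34 to 0.54.

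Slc22a22 codes for a prostaglandin-specific OAT (OAT-PG) that takes up prostaglandin E2 into tubule cells, and it lies on another chromosome than most OATs, at chr15:57243767-57477625. It reached 15.7 and 12.0 FPKM in the WT pools but 7.62 and 9.69 FPKM in the KO pools. Both KO pools were below both WT pools, with a log2 fold change of -0.64 ± 0.19 (SE, n = 2) and an adjusted p of 0.785 (limma, unadjusted p = 0.0235). Over the fits that left out a pool it ranged from -0.83 to -0.46.

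The other lower OATs sit together. Slc22a19, Slc22a26, Slc22a27, Slc22a28, Slc22a29 and Slc22a30 form a cluster of related genes on the minus strand of chromosome 19, next to Slc22a6 and Slc22a8. This cluster was singled out after its values had been seen. Slc22a28 (chr19:8062209-8131982) had 28.4 and 19.5 FPKM in the WT pools and 8.71 and 16.1 FPKM in the KO pools. Slc22a26 (chr19:7781041-7802667) had 1.46 and 2.03 FPKM in the WT pools and 0.791 and 0.814 FPKM in the KO pools. Slc22a29 (chr19:8160165-8218900) had 1.86 and 1.69 FPKM in the WT pools and 0.816 and 0.271 FPKM in the KO pools. In each of these 3 genes both KO pools were below both WT pools, and KO pool 1 was the lowest for Slc22a28 and KO pool 2 for Slc22a29. The log2 fold change was -0.96 ± 0.35 for Slc22a28, -0.77 ± 0.21 for Slc22a26 and -1.17 ± 0.31 for Slc22a29 (SE, n = 2 pools per group). The unadjusted p was 0.0433, 0.0165 and 0.0156 in the same order, and the adjusted p was 0.785, 0.760 and 0.760 (limma, Benjamini-Hochberg). When each pool was left out in turn, the values ranged from -1.38 (without KO pool 2) to -0.53 (without KO pool 1) for Slc22a28, from -0.96 to -0.59 for Slc22a26 and from -1.56 to -0.79 for Slc22a29, which reached -1.87 with voom weights. The value for Slc22a29 rests on 68 and 66 reads in the WT pools and on 31 and 10 reads in the KO pools.

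The remaining genes of the cluster did not separate the groups. Slc22a30 (chr19:8335371-8405111) had 23.9 and 15.3 FPKM in the WT pools and 15.6 and 17.0 FPKM in the KO pools, where only WT pool 1 stood apart. Slc22a19, which codes for OAT5, an apical anion transporter, had 2.98 and 1.65 FPKM in the WT pools and 2.23 and 2.10 FPKM in the KO pools. Slc22a27 was under the filter, with 4 and 0 reads in the WT pools and 1 and 0 reads in the KO pools. All 5 genes tested had a log2 fold change below 0, with a median of -0.77. Over all genes tested, 7497 of 15414 were below 0. Without WT pool 1, Slc22a19 turned to 0.31 and Slc22a30 to 0.088. The values of the cluster are also not independent. Of the stretches of 50 bases in its transcripts, 53.9% of those of Slc22a28, 36.2% of Slc22a30 and 30.5% of Slc22a29 also occur in other genes, mostly of this cluster, so that the counting could split or drop their reads. For Slc22a26 this share was 5.88%, and none of it was with the cluster.

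Slc22a28, Slc22a29 and Slc22a30 also share sequence in front of their starts. The 120 bases before the start of 5 OATs follow, as they cover the 4 lower at an unadjusted p, with Slc22a30, whose stretch is close to that of Slc22a28. They were taken from RefSeq on GRCm38.p6, where 34 of the 40 transporters had a promoter listed. Each is written on the strand of its gene, 5′ to 3′, and capitals in Slc22a30 and Slc22a29 mark the bases that a global alignment did not match to Slc22a28. The stretches begin and end at different points of the shared sequence, so capitals at an end need not be differences. The capitals that open Slc22a29, for example, also occur in Slc22a28 just before its printed stretch. Slc22a28 is at chr19:8131983-8132102, Slc22a30 at chr19:8405106-8405225, Slc22a29 at chr19:8218901-8219020, Slc22a26 at chr19:7802668-7802787 and Slc22a22 at chr15:57477626-57477745 (minus strand).
Slc22a28: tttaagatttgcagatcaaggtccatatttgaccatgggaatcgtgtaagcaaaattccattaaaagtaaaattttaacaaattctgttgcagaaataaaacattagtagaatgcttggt
Slc22a30: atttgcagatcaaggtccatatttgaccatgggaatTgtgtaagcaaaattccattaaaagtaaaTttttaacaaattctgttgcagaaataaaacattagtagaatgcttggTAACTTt
Slc22a29: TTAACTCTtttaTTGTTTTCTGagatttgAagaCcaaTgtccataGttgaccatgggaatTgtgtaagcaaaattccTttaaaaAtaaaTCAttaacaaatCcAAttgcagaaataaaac
Slc22a26: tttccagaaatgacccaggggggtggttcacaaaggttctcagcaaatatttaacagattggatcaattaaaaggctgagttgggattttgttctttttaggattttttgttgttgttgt
Slc22a22: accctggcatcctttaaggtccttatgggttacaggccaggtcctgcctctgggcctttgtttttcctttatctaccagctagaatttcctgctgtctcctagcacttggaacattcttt

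In these alignments of the printed stretches, whose offsets can lower the counts, Slc22a28 and Slc22a30 had 112 of 120 bases in common, and Slc22a28 and Slc22a29 had 89. Slc22a26, of the same cluster, had 71 in common with Slc22a28 and 62 with Slc22a29. The stretch of Slc22a22, from another chromosome, had 65 to 71 bases in common with the other OAT stretches under the same alignment, which allows gaps. Slc22a28 averaged 23.9 FPKM in WT and 12.4 FPKM in KO, and Slc22a30, nearly identical before its start, 19.6 and 16.3 FPKM. The difference between their fold changes was not tested.

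Motif matches were counted on both strands of windows of 250 bases before to 50 bases after a start. The HNF4 core CAAAGTC occurred in 2 of 39 promoters of the transporters, those of Slc22a20 and Slc22a3, and in 4.44% of all 32851 promoters counted. The promoters of a single chromosome, which holds none of the transporters, were left out of all shares. The antioxidant response element core TGACNNNGC occurred in 4 of 39, 10.3%, and in 12.4% of all, and among the tested transporters in 1 of 25 promoters, against 14.4% for tested protein-coding genes. The HNF4 core was in 0 of these 25, against 3.93%. The match of the response element in Slc22a20 overlaps the HNF4 core there. None of these matches is a measure of binding. The HNF4 gene Hnf4a was expressed at 154 and 136 FPKM in the WT pools and at 154 and 144 FPKM in the KO pools, which overlapped.

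Of the other OATs, Slc22a7 and Slc22a13 were the least even between pools. Slc22a7 codes for OAT2, and had 6.20 and 1.45 FPKM in the WT pools and 2.32 and 5.37 FPKM in the KO pools. Each group held a high and a low pool, a 4.28-fold range, and the log2 fold change of 0.17 had an interval of -1.65 to 2.00. Slc22a13 codes for OAT10, an apical exchanger of urate and nicotinate, and had 17.1 and 5.93 FPKM in the WT pools and 15.5 and 10.5 FPKM in the KO pools. WT pool 2 was the lowest, and the interval of its log2 fold change ran from -1.05 to 1.69. Of its 50-base stretches, 36.0% also occur in the pseudogene Slc22a13b-ps.

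Slc22a12 codes for URAT1, the apical urate exchanger, and was listed with 2 and 1 reads in the WT pools and 1 and 1 reads in the KO pools. Of its exonic bases, 30.1% lie opposite exons of Nrxn2, and the value cannot be read as absence of the transcript. Slc22a12 lies in a run of 13 protein-coding genes (chr19:6184388-6544169) that hold 12 reads in all 4 pools together, and Sf1, Men1, Ehd1 and Map4k2, which most cells use, were listed there with 0 reads. Slc22a20 had no read, which allows up to 0.0984 FPKM per pool at 3 reads. Such limits cover counting error only.

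OCTs and MATE proteins make up the cation route, OCTs on the blood side and MATE1 on the urine side. The MATE proteins held 12.2% of the summed FPKM. Slc22a2 (OCT2, chr17:12584132-12628488) had 114 and 97.5 FPKM in the WT pools and 83.1 and 117 FPKM in the KO pools. Slc47a1 (MATE1, chr11:61343401-61378345), which exchanges cations for protons, had 140 and 116 FPKM in the WT pools and 120 and 166 FPKM in the KO pools. The groups overlapped in both genes. The log2 fold change was -0.10 for Slc22a2 and 0.15 for Slc47a1, with intervals of -0.67 to 0.47 and -0.43 to 0.73. A doubling or halving lay outside these intervals, while smaller differences were not resolved. Slc22a3 (OCT3), a low-affinity carrier of monoamines, and Slc47a2 (MATE2) were under the filter, with 6 to 12 reads and 6 to 11 reads per pool.

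The carnitine and zwitterion transporters held 9.23% of the summed FPKM. Slc22a5 codes for OCTN2, which recovers carnitine, and had 99.4 and 69.7 FPKM in the WT pools and 86.4 and 93.5 FPKM in the KO pools. Slc22a4 codes for OCTN1, a transporter of ergothioneine, and had 12.3 and 13.2 FPKM in the WT pools and 12.8 and 14.6 FPKM in the KO pools. It was the most even member, with a 1.18-fold range over the 4 pools. Slc22a21, a rodent carnitine transporter, had 2.17 and 1.64 FPKM in the WT pools and 2.54 and 2.03 FPKM in the KO pools. The 3 genes lie side by side on chromosome 11, all had a log2 fold change above 0 (0.10 to 0.21), and in all of them the pools overlapped. Slc22a5 and Slc22a21 share 27.1% and 24.2% of their 50-base stretches with other genes, chiefly each other. Slc22a16, a carnitine transporter of the testis, had no read.

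The divergent Slc22 members held 14.0%, most of it from Slc22a18. This imprinted gene (chr7:143473736-143499334) had 159 and 123 FPKM in the WT pools and 73.9 and 158 FPKM in the KO pools. KO pool 1 was far below the others, and leaving out a pool moved the log2 fold change between -0.92 and 0.17. Slc22a23, an orphan transporter (chr13:34179158-34345182), had 19.5 and 16.2 FPKM in the WT pools and 23.4 and 23.1 FPKM in the KO pools. Both KO pools exceeded both WT pools, with a log2 fold change of 0.38 ± 0.13 (SE, n = 2) and an adjusted p of 0.785 (limma, unadjusted p = 0.0396). Slc22a17 codes for a receptor of lipocalin-2, the protein that the kidney injury marker Lcn2 encodes, and had 6.76 and 5.80 FPKM in the WT pools and 6.64 and 5.54 FPKM in the KO pools. Its pools overlapped, with an interval of -0.44 to 0.35, whereas Lcn2 itself had 133 and 95.2 FPKM in the WT pools and 249 and 273 FPKM in the KO pools (limma, adjusted p = 0.613). Slc22a15, a carrier of zwitterions, had 0.660 and 0.837 FPKM in the WT pools and 0.588 and 0.458 FPKM in the KO pools. The groups of Slc22a15 did not overlap, but its interval of -0.91 to 0.34 included 0. Slc22a14, known from sperm, was under the filter with 8 to 17 reads per pool.

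**Figure D3:**
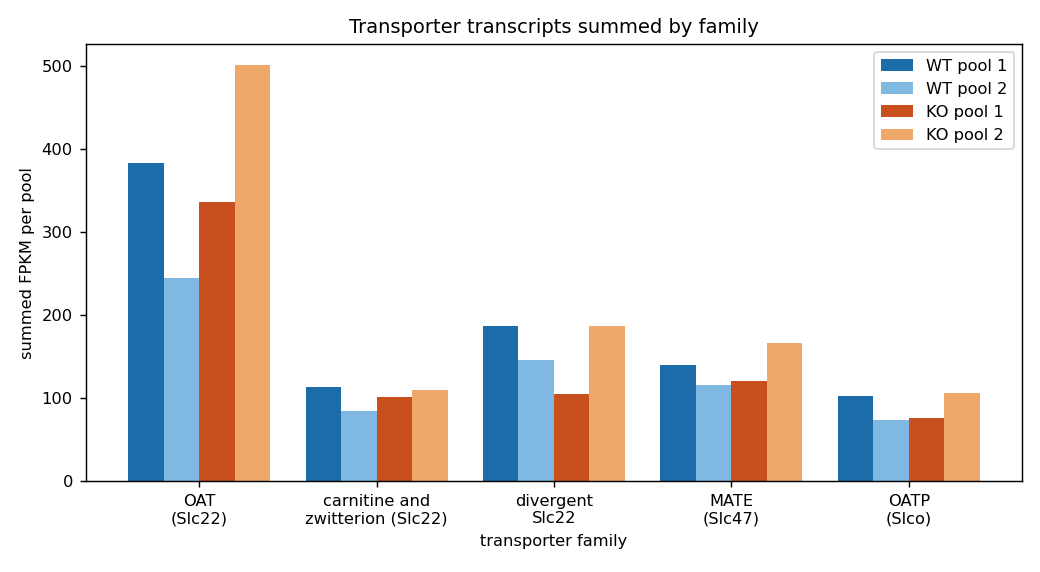
Summed FPKM of the transporter families other than the OCTs in each pool, from a base of 0. OATs reach 502 FPKM in KO pool 2 and 244 FPKM in WT pool 2, and in each family shown the pools of the groups overlap.

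The OATPs were the smallest family by level, with 8.09% of the summed FPKM over 13 members, 6 of them tested. Slco4a1, a thyroid hormone transporter (chr2:180456245-180474867), had 9.61 and 8.42 FPKM in the WT pools and 13.9 and 12.5 FPKM in the KO pools. Both KO pools exceeded both WT pools by more than the spread within a group, with a log2 fold change of 0.53 ± 0.13 (SE, n = 2). Its adjusted p of 0.732 was the smallest of any transporter (limma, unadjusted p = 0.0110), and with a pool left out the fold change ranged from 0.44 to 0.62. Slco2b1, a carrier of sulfated steroids and drugs (chr7:99657804-99711340), had 4.93 and 5.17 FPKM in the WT pools and 7.16 and 6.13 FPKM in the KO pools. The groups did not overlap, and its log2 fold change was 0.36 ± 0.13 (SE, n = 2) with an adjusted p of 0.785 (limma, unadjusted p = 0.0418). Of the exonic bases of Slco2b1, 9.21% lie opposite exons of other genes, and without strand in the reads these cannot be told apart.

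In Slco1a6 and Slco1a1 pools of the same group stood apart. Slco1a6 had 49.1 and 31.1 FPKM in the WT pools and 24.1 and 51.9 FPKM in the KO pools. Slco1a1, an apical carrier of bile salts and steroid conjugates, had 13.4 and 6.47 FPKM in the WT pools and 4.74 and 10.6 FPKM in the KO pools. In both genes WT pool 1 and KO pool 2 were high and WT pool 2 and KO pool 1 low, and the groups overlapped. Slco3a1, which carries prostaglandins, was even, with 24.2 and 20.9 FPKM in the WT pools and 24.9 and 23.5 FPKM in the KO pools. Slco4c1, the basolateral carrier of digoxin and uremic toxins, had 1.89 and 1.41 FPKM in the WT pools and 1.57 and 1.51 FPKM in the KO pools. The interval of the log2 fold change was -0.23 to 0.44 for Slco3a1 and -0.56 to 0.42 for Slco4c1. Slco1a4, Slco1a5, Slco1b2, Slco1c1 and Slco5a1 had 0 to 19 reads per pool and were not tested, and Slco6c1 and Slco6d1 had no read. The liver transporter Slco1b2 had 3 reads, all in KO pool 2.

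Pools of the same group differed in these genes, and the WT pools mostly in the same direction. WT pool 1 was above WT pool 2 for 22 of the 26 transporters, and KO pool 2 was above KO pool 1 for 14. WT pool 2 was the lowest of all 4 pools for 14 transporters, 53.8%, against 30.7% of all genes, and WT pool 1 the highest for 13, 50%, against 20.7%. The median deviation of a transporter from its own mean over the pools was 0.20 in WT pool 1, -0.19 in WT pool 2, -0.05 in KO pool 1 and 0.04 in KO pool 2 on the log2 scale. Over all genes tested, this median lay between -0.0033 (WT pool 2) and 0.0049 (KO pool 2). Without WT pool 1 the median log2 fold change of the transporters was 0.18 in place of -0.04. In kidney tissue, fewer cells of a type and less RNA per cell cannot be told apart.

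**Figure D4:**
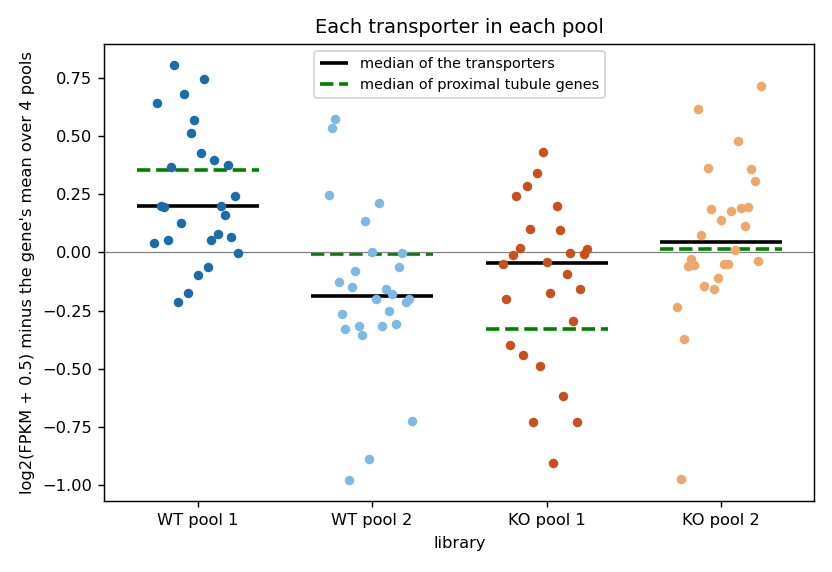
Deviation of each of the 26 transporters from its own mean in each pool, on the log2(FPKM + 0.5) scale, with the median of the transporters (solid line) and of 20 proximal tubule genes (dashed line). WT pool 1 lies highest for both lines, while the lowest pool is WT pool 2 for the transporters and KO pool 1 for the proximal tubule genes.

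Genes of other cell types were read in the same pools. The 10 macrophage genes summed to 209 FPKM in WT pool 1 and 493 FPKM in WT pool 2, and to 264 and 235 FPKM in the KO pools, led by Lyz2 and C1qb, and none was at 0. By summed FPKM, WT pool 2 was thus the pool with the most macrophage transcripts and the fewest transporter transcripts. As a share of the FPKM of nuclear protein-coding genes, however, the transporter sum was lowest in KO pool 1, followed by WT pool 2. In the neutrophil list, where Ly6g was at 0, the sums were 10.2 and 19.6 FPKM in WT and 10.8 and 28.0 FPKM in KO. The 10 endothelial genes summed to 209 and 244 FPKM in the WT pools and to 286 and 305 FPKM in the KO pools, of which Plvap held 103 and 110 FPKM in WT and 161 and 152 FPKM in KO. Of them 2 were higher at an unadjusted p under 0.05 (limma), where 3.29% of all genes were. All 10 had a log2 fold change above 0, where 7917 of all 15414 genes did, with a median of 0.22 (0.050 to 0.36 with a pool left out). Both KO pools lay above both WT pools in 5 of the 10, against 19.7% of all genes, and below them in 0, against 18.1%. The 8 hepatocyte genes, listed because hepatocytes also use Slc22a7 and Slco1a1, summed to 86.3 and 65.3 FPKM in the WT pools and to 56.5 and 62.5 FPKM in the KO pools. Most of this came from Ttr (24.3 to 50.8 FPKM) and Serpina1b (5.33 to 28.4 FPKM), while Alb had 0.408 to 0.868 FPKM and Ahsg was listed at 0. The red blood cell genes summed to 128 and 126 FPKM in WT and to 64.6 and 179 FPKM in KO. The part of these cells in the transporter values was not tested.

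The other proximal tubule genes gave a background for the transporters. Of 20 genes, 18 had a log2 fold change below 0 in KO, with a median of -0.28 (-0.45 to -0.11 with a pool left out, nearest to 0 without KO pool 1), and 5 were lower at an unadjusted p under 0.05, against 3.03% of all genes. These 5, named after their values were seen, were Slc7a7, Gatm, Slc34a3, Slc5a2 and Lrp2. Both KO pools lay below both WT pools in 8 of the 20, against 18.1% of all genes, and above them in 0, against 19.7%. None of the 20 passed the adjusted threshold (limma). The genes with the most transcripts were Pck1, Slc34a1, Slc27a2 and Miox. Slc34a1, the phosphate transporter, had 898 and 689 FPKM in the WT pools and 365 and 609 FPKM in the KO pools, and Miox, an inositol oxygenase, had 601 and 477 FPKM in the WT pools and 211 and 463 FPKM in the KO pools. In both, the 2 KO pools were below the WT pools. Pck1, an enzyme of gluconeogenesis, had 1771 and 575 FPKM in the WT pools and 2122 and 1594 FPKM in the KO pools, with a log2 fold change of 0.86, and Slc27a2, a fatty acid transporter, had one of -0.03. The sums of the whole list overlapped, with 5968 and 3801 FPKM in WT and 4615 and 5029 FPKM in KO. The tubular injury list had 6 genes above 0 and 4 below, 3 higher and 1 lower at an unadjusted p under 0.05 (limma), where 3.29% and 3.03% of all genes were, and a median of 0.14 (0.042 to 0.23 with a pool left out, 0.0027 after quantile normalization), and Spp1, its most abundant gene, had 6872 to 8961 FPKM with overlapping pools. Havcr1, which codes for the injury marker KIM-1, had 210 and 393 FPKM in the WT pools and 249 and 105 FPKM in the KO pools, with overlapping groups and a log2 fold change of -0.83, and Clu had one of -0.21. Both KO pools lay above both WT pools in 5 of the 10, against 19.7% of all genes, and below them in 1, against 18.1%. The 3 past the unadjusted p upwards were Lcn2, with a log2 fold change of 1.21, Cdkn1a, with 1.02, and Krt20, with 0.73. The 1 past it downwards was Vcam1, with -1.91 (14.6 and 31.0 FPKM in WT, 10.5 and 2.59 FPKM in KO). Cdkn1a, Krt20 and Vcam1 were named after their values were seen. In the list of androgen-responsive kidney genes, which several mouse transporters resemble in their sex difference, 4 of 6 had a log2 fold change below 0 and 1, Odc1, was lower at an unadjusted p under 0.05 (limma; median -0.12, which turned to 0.088 without KO pool 1), and Kap ranged from 4387 to 9316 FPKM. In the list of thick limb, distal tubule and collecting duct genes, 0 of 11 had an unadjusted p under 0.05 (limma), with a median of 0.01 (-0.14 to 0.32 with a pool left out) and Umod at 788 to 1133 FPKM.

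The secretion route also needs partner proteins. Of 14 partners, which supply the dicarboxylate or carry anions and urate at the apical side, 13 were tested, and 2 were higher and 0 lower at an unadjusted p under 0.05 (limma), where 3.29% and 3.03% of all genes were. The median log2 fold change was 0.11, and -0.022 to 0.35 with a pool left out, below 0 without KO pool 2. Slc13a3, the basolateral dicarboxylate transporter that fuels OAT1 and OAT3, had 203 and 154 FPKM in the WT pools and 217 and 269 FPKM in the KO pools. Abcc2, an apical pump for conjugates, had 75.9 and 53.5 FPKM in the WT pools and 79.7 and 222 FPKM in the KO pools, where KO pool 2 was far above the rest, as it was for Slc22a6. Abcg2, the apical urate and drug pump, had 51.5 and 38.6 FPKM in the WT pools and 62.6 and 73.6 FPKM in the KO pools, with a log2 fold change of 0.60 ± 0.19 (SE, n = 2) and an adjusted p of 0.785 (limma, unadjusted p = 0.0287). Slc17a1, an apical phosphate and urate transporter, had 200 and 136 FPKM in the WT pools and 190 and 176 FPKM in the KO pools. The KO pools exceeded both WT pools in 4 of the 13, Slc13a3, Abcc2 and Abcg2 among them, against 19.7% of all genes, and lay below them in 2, against 18.1%. These 2, named after their values were seen, were the lactate transporter Slc5a12 (76.1 and 51.2 FPKM in WT, 47.7 and 48.1 FPKM in KO) and the urate transporter Slc17a3 (50.1 and 41.5 FPKM in WT, 35.3 and 38.4 FPKM in KO). In Slc17a1 the pools overlapped.

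Of 13 regulators and scaffold proteins, 1 was higher and 0 were lower at an unadjusted p under 0.05 (limma), where 3.29% and 3.03% of all genes were. The median log2 fold change of 0.19 fell to 0.084 without KO pool 1 and turned to -0.0023 without WT pool 2. The 4 with the most transcripts were Slc9a3r1 and Pdzk1, which tether apical transporters, and the nuclear receptors Hnf4a and Nr1h4. Pdzk1 had 129 and 98.0 FPKM in the WT pools and 95.1 and 99.0 FPKM in the KO pools, and Slc9a3r1 had 200 and 193 FPKM in the WT pools and 160 and 194 FPKM in the KO pools. Nr1h4, the bile acid receptor FXR, had 68.3 and 42.4 FPKM in the WT pools and 69.2 and 57.1 FPKM in the KO pools. The pools of all 4 overlapped. Over the list, both KO pools lay above both WT pools in 5 of the 13, against 19.7% of all genes, and below them in 1, against 18.1%. The gene past an unadjusted p of 0.05, named after its value was seen, was Ppara, the receptor that regulates fatty acid oxidation, with 19.0 and 14.8 FPKM in the WT pools and 31.9 and 29.1 FPKM in the KO pools. Its log2 fold change was 0.84 ± 0.16 (SE, n = 2), with an adjusted p of 0.650 (limma, unadjusted p = 0.0043).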

How the data were processed

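Kidney RNA of 4 pools was measured. The authors deposited FPKM per gene with positions, lengths and biotypes. The submitters' processing notes name HISAT2 2.0.5, mm10 and GRCm38.p6, and the counting tool is not given in the sources used here. Libraries were poly-A selected, and no strand was marked. Of genes shared with GENCODE M21, 97.0% had the same position. Multiplied by gene length, the FPKM of a pool became whole multiples of 1 unit (100% within 0.01), which were taken as reads and as depth.

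limma 3.58.1 (R 4.3.3; lmFit, eBayes with trend) was fitted to log2(FPKM + 0.5) of the 15414 genes whose FPKM averaged 0.5 or more, two-sided, with Benjamini-Hochberg adjustment over all of them. The threshold was the study's, an adjusted p-value of 0.05 and no minimum fold change. At this threshold the study did report differentially expressed genes, with a model that its methods do not name. That no gene passed here holds for limma on the deposited FPKM. An exact permutation test of 2 against 2 cannot go below p = 0.333 and was not used. The script was tested on simulated data. Promoters were aligned with Biopython 1.88. Alternatives changed the pseudocount (0.1 or 1), the filter (none, or an average FPKM of 1), the scaling (median-of-ratios, or quantile normalization) or the genes (protein-coding alone). Others dropped the trend, added a replicate block, left out each pool in turn, or gave the recovered reads to voom.

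Transporters whose FPKM averaged 1 or more were named with their values, the others by their range, and the 4 most abundant genes of a context list could be named. The transporters and the lists were chosen with earlier results of these data known. Lists were described by counts and medians, without a test. Some single-gene and motif results are not reported here.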

Additional observations from a re-analysis of the deposited data

How the results depend on the processing

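No gene passed the adjusted threshold under any limma alternative run, voom weights included. Without adjustment, 974 genes and 7 transporters had a p under 0.05, and over the alternatives it was 687 to 1720 genes and 1 to 7 transporters. Pools with the same number did not deviate together (r = -0.0017 over 15414 genes), which gives no pairing, and the fit with a replicate block gave 0 genes and 0 transporters past the adjusted threshold, 932 and 4 at an unadjusted p, and an unchanged median of -0.040. Of the 24 transporters named with values of at least 1 FPKM on average, 10 kept their direction under every alternative run. The other 14 turned with a pool left out. Over the 4 fits that each left out a pool, the median of the transporters ran from -0.22 to 0.18, and the log2 fold change ran from -0.081 to 0.38 for Slc47a1, -0.92 to 0.17 for Slc22a18, -0.34 to 0.15 for Slc22a2, -0.14 to 0.36 for Slc22a5, -0.042 to 0.24 for Slc22a8, -0.69 to 0.40 for Slco1a6, -7.51e-05 to 0.21 for Slco3a1, -0.54 to 0.088 for Slc22a30, -0.41 to 1.05 for Slc22a13, -0.91 to 0.18 for Slco1a1, -0.16 to 0.078 for Slc22a17, -0.72 to 1.06 for Slc22a7, -0.38 to 0.31 for Slc22a19 and -0.23 to 0.094 for Slco4c1. Quantile normalization turned Slc22a5 to -0.0010. The causes were not tested. With a pool left out, the lone pool of its group is assumed to vary like the others. Transporters under the filter had 19 reads or fewer per pool, too few for a comparison.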
